A study of Mus musculus with 6 samples.

Results

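The 8 immunoglobulin heavy chain constant region genes and the J chain gene were examined in irradiated mouse bone marrow cells sorted by MHC class II (MHCII), a surface molecule through which peptides are shown to CD4 T cells. The genes were taken by symbol, Ighm, Ighd, Ighg3, Ighg1, Ighg2b, Ighg2c, Ighe, Igha and Jchain, and all 9 were found among the 30733 symbols listed. The samples were 3 libraries of MHCII-hi cells and 3 libraries of MHCII-lo cells. All 6 came from bone marrow of wild-type mice given 5 Gy of total body irradiation and are labelled as haematopoietic stem cells (HSCs). Every group was therefore irradiated, and unirradiated cells are not analysed here. The sources used here give neither age, sex, sort gates nor the time after irradiation, and the labels do not say whether replicates were separate mice. The p-values below thus set a group difference only against the variation among these libraries or against their regroupings. That variation may be technical.

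An antibody is made of heavy and light chains, and the constant region of the heavy chain sets its class. A naive B cell splices its rearranged variable region to Ighm or Ighd. Class switch recombination later deletes a stretch of DNA that includes Ighm. The same variable region is then joined to a downstream IgG, IgE or IgA constant region. Plasma cells, many of which live in the bone marrow, secrete the product in bulk. The J chain is a small protein that links IgM and IgA units into polymers and is made mainly by antibody-secreting cells.

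On GRCm38 the heavy constant genes lie on the minus strand of chromosome 12, in the order Ighm (113418558 to 113422730), Ighd (113406604 to 113416324), Ighg3 (113356224 to 113361232), Ighg1 (113325240 to 113330523), Ighg2b (113302965 to 113307933), Ighg2c (113285325 to 113288932), Ighe (113269260 to 113273248) and Igha (113254830 to 113260236). Jchain lies on chromosome 5 (88519809 to 88527891, minus strand). The values are given per gene as FPKM, the number of sequenced fragments divided by exon length and by library size. Each constant gene has a secreted and a membrane form, which differ at the 3′ end, and the gene values do not separate them.

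Sequences that tell the classes apart are shown for IgM, IgA and IgG. IgM and IgA end in a tail whose penultimate codon encodes the cysteine to which the J chain attaches, whereas IgG lacks this tail. The last 60 coding bases of the secreted form, from the GENCODE M21 transcripts of GRCm38 and read 5′ to 3′ on the minus strand, have that cysteine codon in capitals for Ighm (chr12:113420870-113420929) and Igha (chr12:113258771-113258830) and none at this place for Ighg2c (chr12:113287392-113287451).
Ighm tail: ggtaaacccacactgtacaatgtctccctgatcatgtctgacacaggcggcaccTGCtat
Igha tail: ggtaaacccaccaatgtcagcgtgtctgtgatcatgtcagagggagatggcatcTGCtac
Ighg2c end: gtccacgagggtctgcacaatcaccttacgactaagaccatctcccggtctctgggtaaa

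The 4 IgG genes are close relatives, and the hinge exon, which encodes the flexible stretch between the arms and the stem of the antibody, is where they differ most visibly. Cysteine codons in the annotated reading frame, whose products can form bonds between the chains of an antibody, are in capitals. The exons are those of Ighg3 (chr12:113360529-113360576), Ighg1 (chr12:113329844-113329882), Ighg2b (chr12:113307261-113307326) and Ighg2c (chr12:113288263-113288325).
Ighg3 hinge: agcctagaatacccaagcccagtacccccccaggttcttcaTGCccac
Ighg1 hinge: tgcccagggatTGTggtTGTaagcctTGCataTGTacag
Ighg2b hinge: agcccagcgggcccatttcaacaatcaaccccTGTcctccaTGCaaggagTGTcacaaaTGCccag
Ighg2c hinge: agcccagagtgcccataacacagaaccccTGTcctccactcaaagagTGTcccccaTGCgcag
Ighg2b and Ighg2c were the most alike over their secreted coding sequence, with 86.3% identity, against 76.1% to 78.7% for the other pairs of IgG genes. Of all 50-base windows of its annotated transcripts, Ighg2c shared 5.49% with another heavy constant gene, Ighg2b 4.15%, Ighg3 1.58% and Ighg1 0.393%. No 50-base window of Ighm, Ighd, Ighe or Igha was shared, and no 100-base window of any of the 8 genes was. The sources used here do not say how the authors' counting placed reads from the shared windows, so the split among the IgG genes carries that uncertainty.

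Antibody heavy chain RNA was far more abundant in MHCII-hi cells. The summed heavy constant level was 8944, 8801 and 8900.3 FPKM in the MHCII-hi libraries, against 209.7, 210.1 and 209.97 FPKM in the MHCII-lo libraries. On the log2 scale this was a mean of 13.12 in MHCII-hi, against 7.71 in MHCII-lo, a difference of 5.40, with an exact two-sided permutation p = 0.1 (n = 3 each), which is as low as the test goes with groups of 3. Heavy constant genes with Jchain took 2.67% ± 0.0128 of the summed FPKM of a MHCII-hi library and 0.0674% ± 0.000562 of a MHCII-lo library (SD, n = 3). A rise in bulk RNA of this kind cannot tell more expressing cells apart from more RNA per cell.

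**Figure D1:**
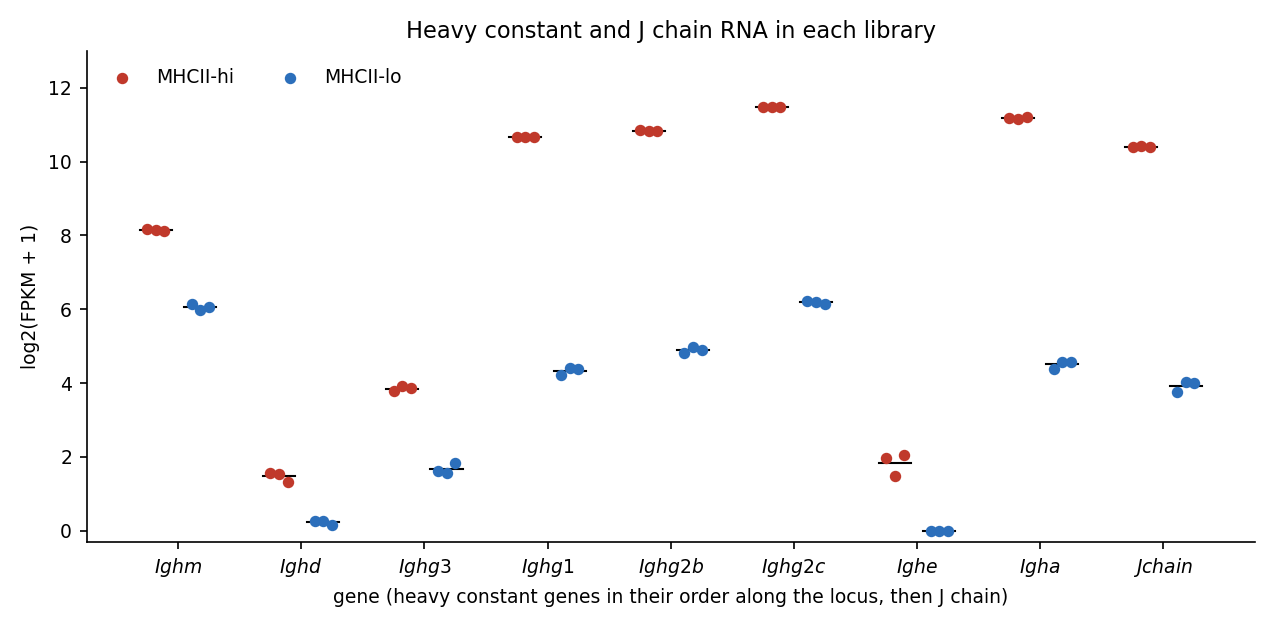
Level of each gene in each library on the log2(FPKM + 1) scale, with MHCII-hi libraries (red) left of MHCII-lo libraries (blue) and a black bar at each group mean. No gene has overlapping groups, and the distance between them is smallest for Ighm, Ighg3, Ighd and Ighe.

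Of the 9 genes, 8 averaged 1 FPKM or more across the 6 libraries and were tested, and all 8 were higher in MHCII-hi at an adjusted p of 0.05 (limma on log2(FPKM + 1), Benjamini-Hochberg adjustment over 12110 tested genes). Over all tested genes 25.5% were called higher in MHCII-hi, 33.1% lower and 58.6% in either direction, so a call alone says little here and the sizes matter more. The ranges of MHCII-hi and MHCII-lo libraries were separate for each of the 9 genes, against 65.8% of tested genes without overlap and 29.0% with every MHCII-hi library above every MHCII-lo library. Ighe passed the minimum only through its MHCII-hi values and so had to differ. The median log2 change of all tested genes was -0.04, and 137 genes had a log2 change of at least 5, among them Igha, Jchain, Ighg1, Ighg2b and Ighg2c.

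IgM is the first class a B cell makes, and per length its gene was second only to Ighg2c in MHCII-lo but well below the main switched classes in MHCII-hi. Ighm was at 288, 280.4 and 277 FPKM in MHCII-hi, against 69.5, 61.6 and 65.5 FPKM in MHCII-lo. That is a 4.30-fold difference, the smallest among the members with a value above 0 in every library (log2 change 2.09, SE 0.04, limma adjusted p = 8.62e-08). IgD shares its transcript with IgM in mature naive B cells and is made by alternative splicing. Ighd was low in both groups and near the lower limit in MHCII-lo, at 1.97, 1.91 and 1.49 FPKM in MHCII-hi and 0.20, 0.19 and 0.12 FPKM in MHCII-lo. Its mean over the 6 libraries of 0.98 FPKM fell just short of the minimum, so it carries no test. With the annotated transcript lengths and the depths estimated below, the MHCII-lo values correspond to between 2.42 and 8.51 fragments per library. The MHCII-hi values correspond to between 28.2 and 115 fragments per library. Ighm exceeded Ighd 146, 147 and 186 times in MHCII-hi, and 347, 324 and 546 times in MHCII-lo.

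Among the IgG genes, 3 rose by more than 39-fold and Ighg3 by far less. Ighg2c, the IgG class favoured by interferon gamma, was the highest heavy constant gene per length in both groups, at 2870.2, 2827 and 2829.7 FPKM in MHCII-hi and 73.4, 72.8 and 70.2 FPKM in MHCII-lo, a 39.4-fold difference (log2 change 5.28, SE 0.02, limma adjusted p = 1.69e-10). It was the 14th most abundant of all symbols in each MHCII-hi library and ranked between 599 and 634 in MHCII-lo. Ighg2b stood at 1835, 1809.7 and 1805 FPKM in MHCII-hi and at 27.3, 30.6 and 28.8 FPKM in MHCII-lo, a 62.8-fold difference (log2 change 5.93, SE 0.04, limma adjusted p = 5.40e-10). Ighg1, the class favoured by interleukin-4, stood at 1614, 1607 and 1629 FPKM in MHCII-hi and at 17.6, 20.04 and 19.8 FPKM in MHCII-lo, an 84.5-fold difference (log2 change 6.33, SE 0.05, limma adjusted p = 8.64e-10). Per length, the order of the folds was the reverse of the order of the levels among these 3 genes. Ighg3, a class typical of responses to carbohydrate antigens, reached only 12.7, 14.1 and 13.5 FPKM in MHCII-hi and 2.05, 1.96 and 2.57 FPKM in MHCII-lo. Its 6.13-fold difference (log2 change 2.18, SE 0.08, limma adjusted p = 1.58e-06) was nearer to that of Ighm than to those of the other IgG genes.

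Igha, which encodes the class secreted onto mucosal surfaces, had the largest fold of the 9 genes. It was at 2318, 2259 and 2342 FPKM in MHCII-hi and at 19.7, 22.9 and 23.0 FPKM in MHCII-lo, a 106-fold difference (log2 change 6.66, SE 0.06, limma adjusted p = 1.61e-09). Only 11 of the 12110 tested genes had a larger log2 change. Ighe, which encodes the class bound by mast cells and basophils, was at 2.92, 1.80 and 3.17 FPKM in MHCII-hi, which corresponds to between 49.95 and 137 fragments per library. In all 3 MHCII-lo libraries it was listed at 0, where 3 fragments would have given between 0.0819 and 0.0946 FPKM. It passed the test (limma adjusted p = 9.05e-05), and no fold is given against a group listed at 0.

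**Figure D2:**
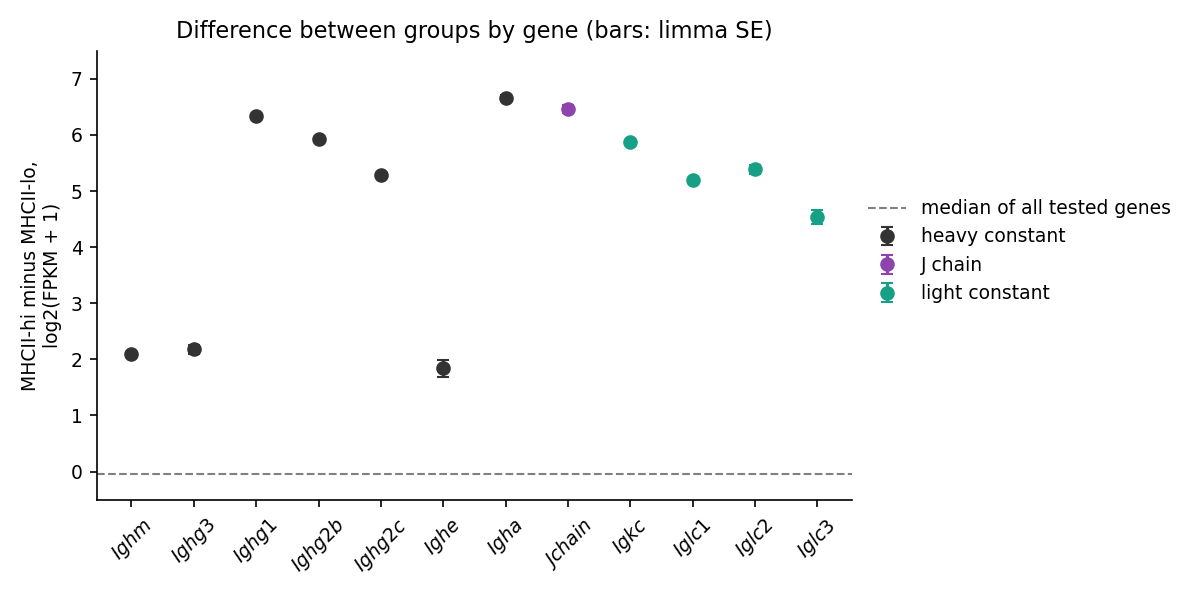
Log2 change (MHCII-hi over MHCII-lo, in units of log2(FPKM + 1)) with its limma standard error, for the tested heavy constant genes in their order along the locus, for Jchain and for the light constant genes; the dashed line is the median of all tested genes. Ighm, Ighg3 and Ighe lie near 2 and the other genes between 4.54 and 6.66; the value of Ighe depends on the added 1 FPKM, because it was listed at 0 in MHCII-lo.

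Because the folds were unequal, the make-up of the heavy constant RNA differed between the groups. Shares of the summed heavy constant FPKM within a library do not depend on how libraries are scaled to each other. In MHCII-hi cells IgM with IgD made up 3.25%, 3.21% and 3.13% of heavy constant RNA, against 33.2%, 29.4% and 31.3% in MHCII-lo cells. The switched classes (IgG, IgA and IgE) together held 96.8% ± 0.0604 (SD, n = 3) in MHCII-hi, against 68.7% ± 1.90 in MHCII-lo. All 4 IgG genes together held 70.8% ± 0.289 in MHCII-hi and 58.3% ± 1.22 in MHCII-lo. The share of Igha was 25.9%, 25.7% and 26.3% in MHCII-hi and 9.39%, 10.9% and 10.9% in MHCII-lo. Ighg1 took 18.2% ± 0.136 in MHCII-hi and 9.12% ± 0.621 in MHCII-lo, and Ighg2b 20.5% ± 0.154 in MHCII-hi and 13.8% ± 0.763 in MHCII-lo.

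The share of Ighg2c was slightly lower in MHCII-hi, at 32.0% ± 0.183 in MHCII-hi and 34.4% ± 0.808 in MHCII-lo, and its fold was close to the 42.3-fold difference of the sum. Within the switched classes alone its share was 33.1% ± 0.208 in MHCII-hi, against 50.05% ± 2.04 in MHCII-lo. Ighg2c exceeded Ighg1 1.78, 1.76 and 1.74 times in MHCII-hi and 4.16, 3.63 and 3.55 times in MHCII-lo. Igha exceeded Ighm 8.04, 8.06 and 8.46 times in MHCII-hi, and in MHCII-lo the ratio of Igha to Ighm was 0.283, 0.371 and 0.351. Ighg3 held 0.151% ± 0.00923 in MHCII-hi and 1.04% ± 0.157 in MHCII-lo, Ighd 0.0202% ± 0.00296 in MHCII-hi and 0.0810% ± 0.0208 in MHCII-lo, and Ighe 0.0296% ± 0.00804 in MHCII-hi. In each of the 11 shares compared (8 genes and 3 sums) the groups did not overlap, and each had an exact two-sided permutation p = 0.1, the smallest possible, and 0.1 after Benjamini-Hochberg adjustment over the 11. These comparisons are not independent, since all shares are parts of the same sum. The switched share is the remainder of the IgM with IgD share. Replicates were alike in make-up, and the largest SD of a share was 0.323 percentage points in MHCII-hi and 1.90 in MHCII-lo.

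**Figure D3:**
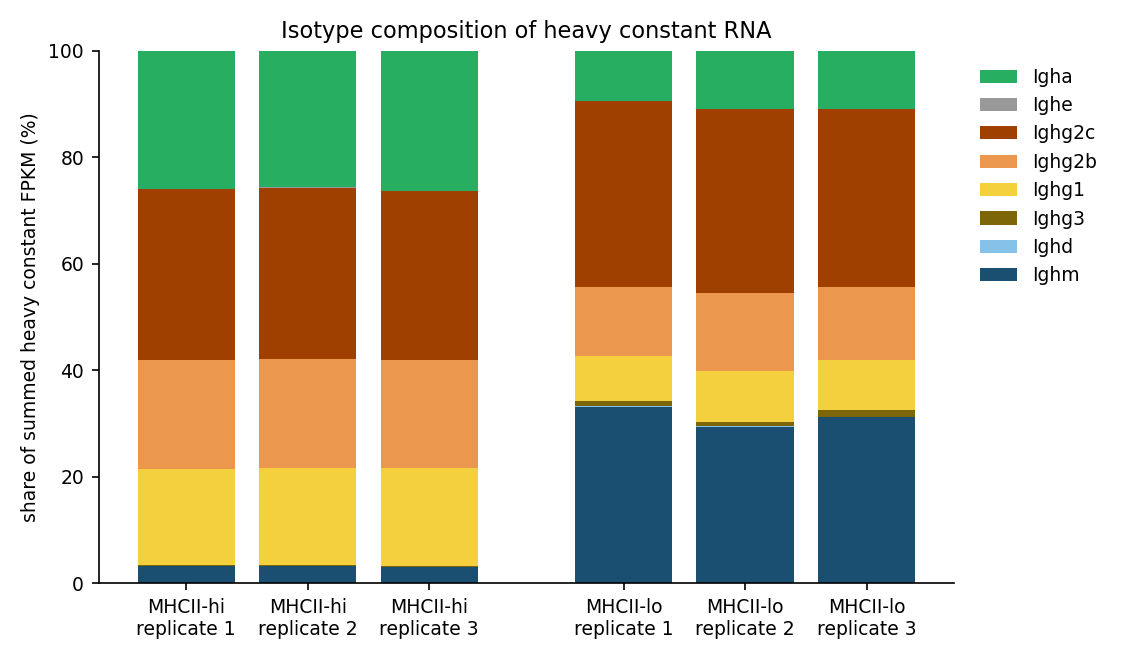
Share of each class in the summed heavy constant FPKM of each library, in percent, stacked from Ighm at the bottom to Igha at the top, with the MHCII-hi libraries on the left. The Ighm band is 3.11% to 3.22% in MHCII-hi and 29.3% to 33.1% in MHCII-lo, while the Ighg2c band is of similar height in every library.

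The levels of classes relative to each other depend on annotated length, since FPKM divides by it. The shares were also weighted by the exon length of both annotated forms together. That follows fragments only as far as the values were divided by the same lengths, which the sources used here do not give. So weighted, Igha led in MHCII-hi with 31.5%, against 14.2% in MHCII-lo. Ighm then led in MHCII-lo with 30.1%, against 2.72% in MHCII-hi. Ighg2b held 24.9% in MHCII-hi and 18.9% in MHCII-lo, Ighg1 21.4% in MHCII-hi and 12.1% in MHCII-lo, and Ighg2c 19.3% in MHCII-hi and 23.3% in MHCII-lo, so Ighg2c was the lowest of these 3 IgG genes in MHCII-hi and the highest in MHCII-lo. The IgM with IgD share was then 2.74% in MHCII-hi, against 30.2% in MHCII-lo. Each of the 11 shares kept its direction under that weighting.

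The J chain rose more than the heavy constant RNA as a whole. Jchain was at 1333, 1357 and 1335 FPKM in MHCII-hi and at 12.6, 15.3 and 14.9 FPKM in MHCII-lo, a 94.2-fold difference (log2 change 6.46, SE 0.07, limma adjusted p = 3.08e-09). Per 100 FPKM of heavy constant RNA there were 14.9, 15.4 and 15.0 FPKM of Jchain in MHCII-hi and 5.9996, 7.26 and 7.10 FPKM in MHCII-lo. Set against the classes it joins, with the tails shown above, Jchain was 0.511, 0.534 and 0.510 of the level of Igha plus Ighm in MHCII-hi and 0.141, 0.180 and 0.169 of it in MHCII-lo. These ratios differed by 1.16 and 1.67 on the log2 scale, the groups did not overlap, and both comparisons had an exact two-sided permutation p = 0.1 (0.1 adjusted over the 2). The difference in the ratio to Igha plus Ighm depends on Ighm. Jchain rose less than Igha (94.2-fold against 106-fold) and more than Ighm (4.30-fold). Ighm averaged 282 of the 2588 FPKM of that sum in MHCII-hi and 65.5 of the 87.4 FPKM in MHCII-lo.

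Light chain constant genes were also far higher in MHCII-hi, by folds within the range of the abundant switched heavy genes or just under it. Igkc, the kappa constant region, was the most abundant of all symbols in every MHCII-hi library, at 18474, 17931 and 18082 FPKM, and stood at 297, 315 and 314 FPKM in MHCII-lo, a 58.8-fold difference (log2 change 5.87, SE 0.03, limma adjusted p = 1.69e-10). The lambda constant genes Iglc1, Iglc2 and Iglc3 differed 38.9-fold, 50.9-fold and 41.6-fold. Light over heavy constant FPKM was 2.16, 2.13 and 2.12 in MHCII-hi and 1.51, 1.60 and 1.59 in MHCII-lo. The lambda share of light constant FPKM stood at 4.43% ± 0.0732 (SD, n = 3) in MHCII-hi, against 6.15% ± 0.141 in MHCII-lo. Neither pair of values overlapped, with an exact two-sided permutation p = 0.1 for each (0.1 adjusted over the 2). The log2 difference of light over heavy was 0.45, and 0.28 with length weighting. So weighted, the log2 ratio averaged -0.956 in MHCII-hi and -1.24 in MHCII-lo, so heavy then exceeded light in both groups.

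**Figure D4:**
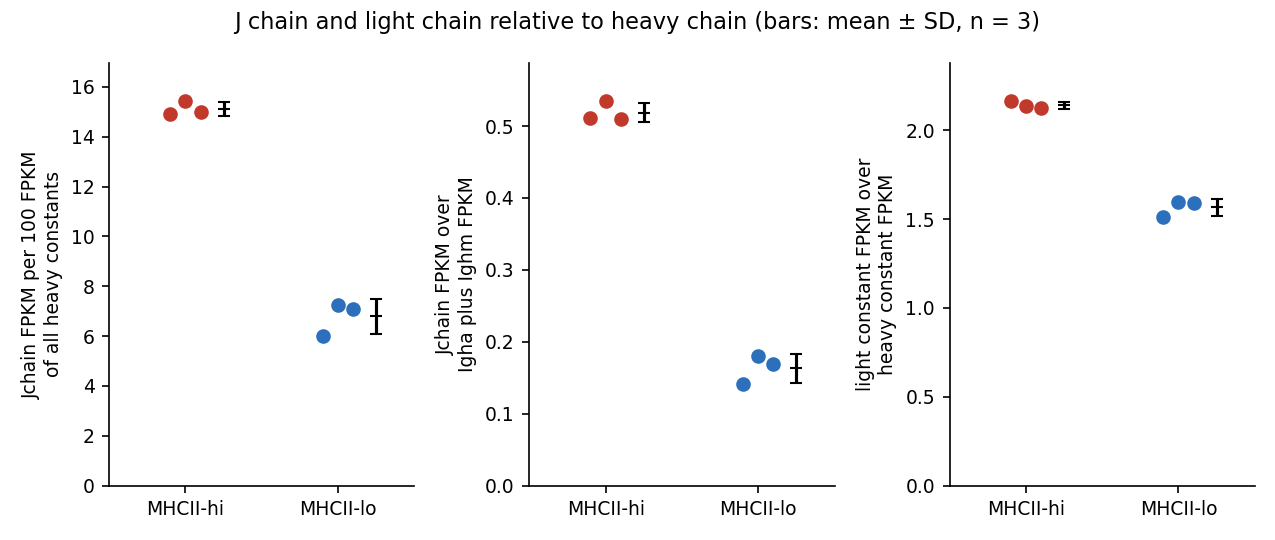
Jchain FPKM per 100 FPKM of heavy constant genes, Jchain FPKM over Igha plus Ighm FPKM, and light over heavy constant FPKM in each library, with MHCII-hi left of MHCII-lo and the mean ± SD (n = 3) beside the points. Each ratio is higher in all 3 MHCII-hi libraries than in any MHCII-lo library.

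Genes that carry out class switching did not follow the antibody genes. Of the 19 tested genes of the 22 listed, 1 rose, 7 fell and 11 did not pass, with a median log2 change of -0.14. Among all tested genes 25.5% rose and 33.1% fell. The base excision nuclease gene Apex1 fell to 24.1 ± 0.452 FPKM in MHCII-hi, against 40.7 ± 1.25 FPKM in MHCII-lo (log2 change -0.73, SE 0.03). The end-joining gene Xrcc5 stood at 4.46 ± 0.380 FPKM in MHCII-hi and 6.55 ± 0.380 FPKM in MHCII-lo, and the transcription factor Batf at 6.47 ± 0.296 FPKM in MHCII-hi and 8.38 ± 0.562 FPKM in MHCII-lo. The single gene that rose was Trp53bp1, which protects broken ends, with a log2 change of 0.23. Scaling without immunoglobulin genes shifted the median of all genes by 0.15, and then 5 rose and 3 fell, so the direction of the small changes depends on scale.

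Genes for antibody assembly and secretion went both ways. Of the 20 genes, all tested, 9 rose and 11 fell, with a median log2 change of -0.15. Among all tested genes 25.5% rose and 33.1% fell. With the scaling without immunoglobulin genes 9 of the 20 rose and 7 fell. Mzb1, a chaperone of IgM and IgA secretion, was at 46.2, 37.9 and 39.5 FPKM in MHCII-hi and 0.20, 0.44 and 0.98 FPKM in MHCII-lo (log2 change 4.80, SE 0.18). Mzb1 and Derl3 passed the expression minimum only through MHCII-hi and so had to differ. Derl3, which acts in the removal of misfolded proteins, stood at 8.75 ± 0.811 FPKM in MHCII-hi and 0.717 ± 0.155 FPKM in MHCII-lo, and the disulfide isomerase Txndc5 at 45.4 ± 0.932 FPKM in MHCII-hi and 23.4 ± 0.495 FPKM in MHCII-lo. The isomerase Pdia3 fell to 226 ± 2.21 FPKM in MHCII-hi, against 318 ± 3.48 FPKM in MHCII-lo.

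Receptors and partners of antibodies went both ways, with 6 of 10 tested genes higher and 4 lower, a median log2 change of 0.27 and 5 of the 15 listed below the minimum. The shares over all tested genes were 25.5% higher and 33.1% lower. Cd79a, which carries the signal of membrane antibody, was at 24.0, 25.1 and 23.9 FPKM in MHCII-hi and 0.43, 0.14 and 0.27 FPKM in MHCII-lo (log2 change 4.31, SE 0.08), and it too passed the minimum only through MHCII-hi. Fcer1a, the binding chain of the IgE receptor, stood at 64.7 ± 1.24 FPKM in MHCII-hi and 44.3 ± 1.18 FPKM in MHCII-lo. The IgG receptor genes Fcgr3 and Fcgr4 were lower, at 96.9 ± 1.75 and 13.2 ± 1.03 FPKM in MHCII-hi, against 135 ± 3.92 and 28.6 ± 1.75 FPKM in MHCII-lo. Pigr, the epithelial receptor that carries polymeric antibody, averaged 0.02 FPKM in MHCII-hi and was listed at 0 in MHCII-lo.

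**Figure D5:**
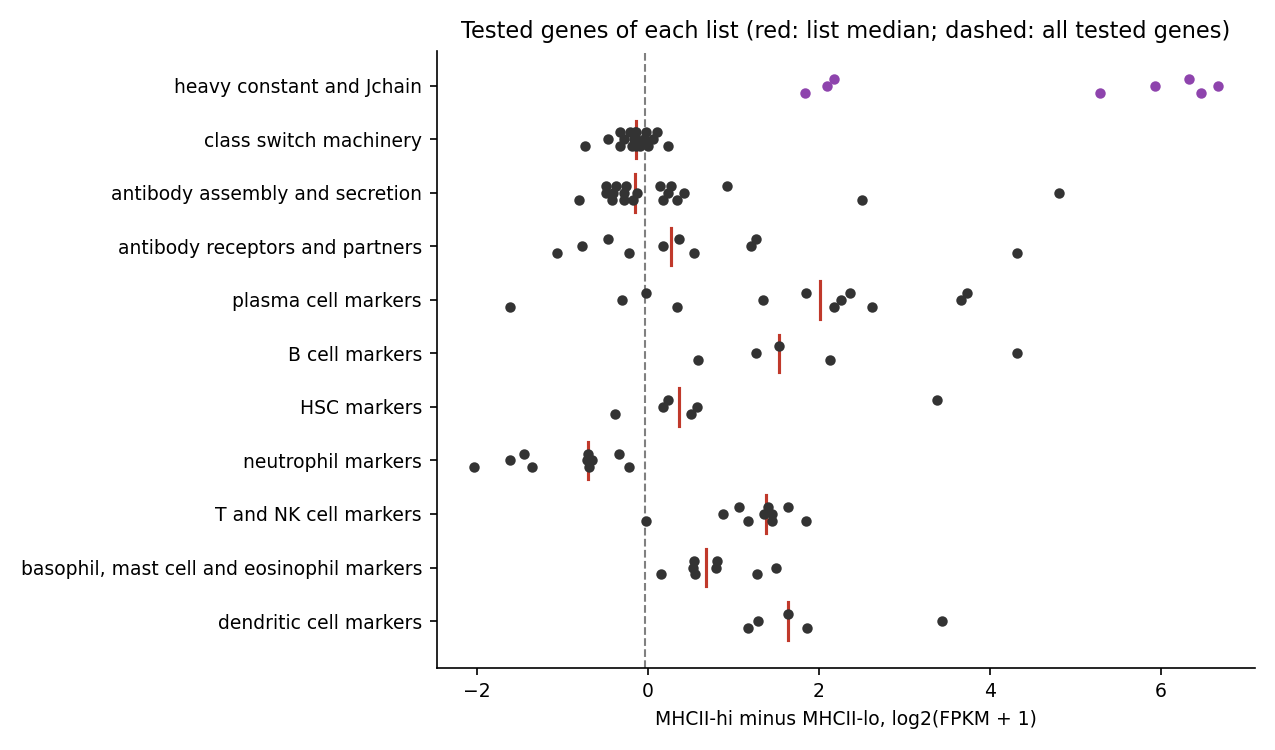
Log2 change (MHCII-hi over MHCII-lo, in units of log2(FPKM + 1)) for each tested gene of the heavy constant and Jchain genes (purple) and of the other gene lists (black); a red line marks a list's median and the dashed line the median of all tested genes. The antibody genes lie between 1.84 and 6.66, while class switch genes lie between -0.73 and 0.23.

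Marker genes of other cells moved with these results, and their part in them was not tested. For comparison, 25.5% of all tested genes rose and 33.1% fell. Among 12 plasma cell markers 9 rose, 2 fell and 1 did not pass. Of the 9, 8 averaged under 1 FPKM in MHCII-lo, so they were tested only through MHCII-hi and had to differ, and the same holds for 4 of 5 B cell, 3 of 9 T and NK cell and 3 of 5 dendritic cell markers that rose. The regulators Irf4 and Pou2af1 stood at 19.5 ± 0.311 and 15.5 ± 1.0 FPKM in MHCII-hi, against 0.55 ± 0.182 and 0.297 ± 0.0651 FPKM in MHCII-lo, while the surface gene Cd38 fell to 0.973 ± 0.0451 FPKM in MHCII-hi, against 5.05 ± 0.175 FPKM in MHCII-lo, and was tested only through MHCII-lo. The plasma cell list summed to between 564 and 586 FPKM in MHCII-hi and between 549 and 565 FPKM in MHCII-lo, mostly from Cxcr4 and Ly6c2, which other marrow cells also express. The 14 B cell markers summed to between 57.7 and 60.5 FPKM in MHCII-hi and between 8.32 and 9.85 FPKM in MHCII-lo. Of these, 5 were tested and rose, and 9 lay below the minimum, Ms4a1 and Pax5 among them with means of 1.36 and 1.21 FPKM in MHCII-hi and 0.00667 and 0.0167 FPKM in MHCII-lo. All 10 neutrophil markers fell, and their sum was at most 18471 FPKM in any MHCII-hi library and at least 40697 FPKM in any MHCII-lo library. Of 11 T and NK cell markers 9 rose and 1 did not pass, of 8 basophil, mast cell and eosinophil markers 7 rose and 1 did not pass, and of 7 dendritic cell markers 5 rose. The sums of these 3 lists were 209 to 217, 5733 to 5868 and 48.2 to 49.9 FPKM in MHCII-hi, against 166 to 175, 2462 to 2485 and 10.5 to 11.0 FPKM in MHCII-lo. The T and NK cell sum came mostly from Nkg7, which did not pass, at 148 ± 3.42 FPKM in MHCII-hi and 150 ± 3.99 FPKM in MHCII-lo. Of the 10 HSC markers, 4 rose, 1 fell and 1 did not pass, and 4 lay below the minimum. Those 4, Mecom, Fgd5, Procr and Slamf1, averaged at most 0.497 FPKM in either group. Ly6a, Kit and Cd34 had the highest means over the 6 libraries, and stood at 35.5, 15.0 and 15.5 FPKM in MHCII-hi, against 2.497, 12.6 and 10.05 FPKM in MHCII-lo. The HSC list summed to between 70.5 and 75.6 FPKM in MHCII-hi and between 30.5 and 30.9 FPKM in MHCII-lo, below the sum of the neutrophil list in every library. Sums over different genes do not compare numbers of cells.

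Over the 6 libraries, the genes outside the immunoglobulin loci whose profiles lay nearest to that of Jchain were Mzb1, H2-Eb1, Cd74, H2-Aa and Cd79a, at Euclidean distances of 2.09, 2.13, 2.17, 2.60 and 2.67 between centred log2(FPKM + 1) profiles. The same 5 genes lay nearest to the summed heavy constant level, led by H2-Eb1 at 0.842, Cd74 at 0.848 and Mzb1 at 0.913. H2-Eb1 and H2-Aa encode chains of MHCII, on which the cells were sorted, and Cd74 encodes the invariant chain that assists its assembly. With 2 groups of 3 libraries, nearness reflects mainly the size of the difference between the groups.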

How the data were processed

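Sorted bone marrow cells were profiled by stranded mRNA sequencing, as the labels' protocols say. Tools named in the submitters' processing notes are fastp, HISAT2 and StringTie, with the build GRCm38 (mm10); the sources used here give no versions, settings or annotation. For each library the authors deposited 1 table, whose values were read as FPKM from their non-integer form, their sums and their length-dependent steps, since the headers state no unit. Of 30803 rows, 70 that repeated a symbol were dropped in favour of the row with the higher mean.

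Genes that averaged 1 FPKM or more were tested two-sided with limma 3.58.1 (R 4.3.3) on log2(FPKM + 1), letting the variance prior follow the mean level, with Benjamini-Hochberg adjustment at 0.05. This scale understates the change of genes at low level, and a fold is the ratio of the group means in FPKM. Sums, shares and ratios were compared with exact permutation tests (scipy 1.17.1). The gene test was tested on simulated data.

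The members and gene lists were chosen with earlier results of these data known. Named were the members, the light constant genes, up to 4 genes with the smallest p in each list and the 5 nearest profiles. Trp53bp1, Pigr, Ms4a1, Pax5, Cd38, Cxcr4, Ly6c2, Mecom, Fgd5, Procr, Slamf1, Ly6a, Kit and Cd34 were named after their values were seen. A withheld item is not reported here. Ero1a and Ero1b were matched by the older symbols Ero1l and Ero1lb.

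Depth was not stated. The first step in the values of single-exon genes of 300 to 1000 bases, taken as 1 fragment, gave 3.22e+07, 2.03e+07 and 2.36e+07 fragments in MHCII-hi and 2.32e+07, 2.48e+07 and 2.51e+07 in MHCII-lo. Fragment numbers rest on this estimate. The limit of 3 fragments covers counting error only. The variance between replicates was 2.71 to 3.03 times that of counting noise, and replicates were counted separately. Coordinates, exon lengths and sequences come from GENCODE M21 (GRCm38). The alternatives were leaving out each library, a replicate block, another pseudocount, other minima, scalings and variance models, and length weighting.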

Additional observations from a re-analysis of the deposited data

How the results depend on the processing

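The log2 changes of the 8 tested members stayed positive and past the test in every fit that included them. Over 16 fits that of Ighm ranged from 1.82 to 2.27, of Igha from 6.57 to 6.84 and of Jchain from 6.14 to 6.64, and that of Ighe ranged from 1.58 to 4.73 over 13 fits, the highest with a pseudocount of 0.1. The number of members called was 9 without an expression minimum, which adds Ighd, 7 with a minimum of 5 FPKM and 7 to 9 when a library was left out and the minimum applied to the other 5. Scaling to the summed FPKM without immunoglobulin genes gave 4901 higher and 2131 lower genes in place of 3084 and 4009. It gave 5 higher and 3 lower class switch genes in place of 1 and 7, and 7 lower assembly and secretion genes in place of 11. A minimum of 5 FPKM left 1792 higher genes, with fewer genes tested. Between 3 and 7 B cell markers rose when a library was left out, against 5 with all 6; it was 3 without any 1 of the MHCII-hi libraries, because fewer markers then passed the minimum. The shares, the J chain ratios and the light to heavy ratio kept their direction when any library was left out and under length weighting. Same-numbered libraries of the 2 groups did not deviate together (correlations of -0.092, -0.004 and -0.035). With deviations taken from means of 3 libraries, these values cannot show whether same-numbered libraries were paired. With the replicate number as a block, 6638 genes were called in place of 7093, and 8 members. With fewer than 10 fragments per MHCII-lo library, the level of Ighd there is imprecise.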
